A study of Mus musculus with 2 samples.

Results

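Tcf1 occupancy was described at 8 genes that encode receptors known from natural killer (NK) cells, in naive CD8+ T cells of the mouse spleen. The genes were Klrg1, Klrk1, Klrd1, Klrc1, Klrc2, Klre1 and Klrb1c on chromosome 6 and Ncr1 on chromosome 7. A Tcf1 ChIP-seq peak was assigned to them when its summit, the base with the most WT fragments, lay in a gene body or within 50 kb of either end of the gene (mm9, GENCODE vM1 annotation). By this rule 14 of the 22286 deposited peaks were included. All 14 passed the study's limits for a high-confidence peak (p under 1e-05, q under 0.05 and a fold enrichment no lower than 4), as did 85.4% of the whole list. A high-confidence summit lay in the windows of 7 of the 8 genes, against 66.5% of the 22350 protein-coding genes, and in the bodies of 0 of the 8, against 25.0% of protein-coding genes. Windows of 10 kb held one for 5 of the 8 genes, against 48.7%, windows of 100 kb for 8 of 8, against 75.2%, and the gene body with 50 kb upstream for 5 of 8, against 56.8%.

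Chromatin precipitated with a Tcf1 antiserum gave 1 WT library, with 36938606 fragments once duplicates were dropped, and 1 Tcf1-deficient library, with 27625250, which was the authors' control for peak calling. The labels give both groups as GFP+ TCRbeta+ CD8+ cells with high CD62L and low to intermediate CD44. The study's main strains all carried the hCD2-Cre transgene, which deletes floxed genes mainly after T cells have left the thymus, and a GFP reporter at Rosa26 that Cre switches on, with Tcf1 and Lef1 either wild-type or floxed. The control is titled Tcf1-deficient, its genotype label is Tcf1-/-Lef1-/-, and the study's methods give Cd4-Cre+ Tcf7 fl/fl mice, in which Cre acts from the thymus onwards and Lef1 is not targeted, so these sources differ on the loss of Lef1. The methods give the GFP+ gate for the hCD2-Cre strains and for the work as a whole, but name no GFP reporter for these mice. The strains were on a C57BL/6 background, and the labels give neither the age nor the number of mice behind a library. The study's methods give an age range in weeks, and both sexes, for all its mice together. With 1 library per group there was no replicate check and no test between genotypes. Intervals are 95% intervals for counting error only, other than that of a median, which is taken from the ranks of the peaks.

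NK receptors set the threshold at which an NK cell attacks a target, by balancing activating and inhibitory signals, and many are also carried by activated or memory CD8+ T cells. Most belong to the C-type lectin-like family encoded in the NK gene complex, where CD94 (Klrd1) pairs with NKG2A (Klrc1) to inhibit and with NKG2C (Klrc2) to activate, and where NKG2D (Klrk1) recognises stress-induced ligands. Tcf1 binds DNA through an HMG box that prefers the Tcf/Lef core, and it can also be recovered where it is held by other factors.

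Peaks were grouped in 4 separate windows after overlapping ones were merged, and their numbers differed widely. The Klrb1c window held 8 peaks in 110.731 kb, or 72.2 per Mb (31.2 to 142). The shared window of Klre1, Klrd1, Klrk1, Klrc2 and Klrc1 held 4 in 201.081 kb, or 19.9 per Mb (5.42 to 50.9), and the Klrg1 window held 2 in 112.287 kb, or 17.8 per Mb (2.16 to 64.3). The Ncr1 window held 0 in 107.441 kb, which allows up to 27.9 per Mb by 3 counts, with an exact interval of 0 to 34.3. The interval of the Klrb1c window overlapped those of the Klrg1, shared and Ncr1 windows. Over all 4 windows the density was 26.3 per Mb (14.4 to 44.2), against 10.7 per Mb over the same windows of all protein-coding genes.

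**Figure D1:**
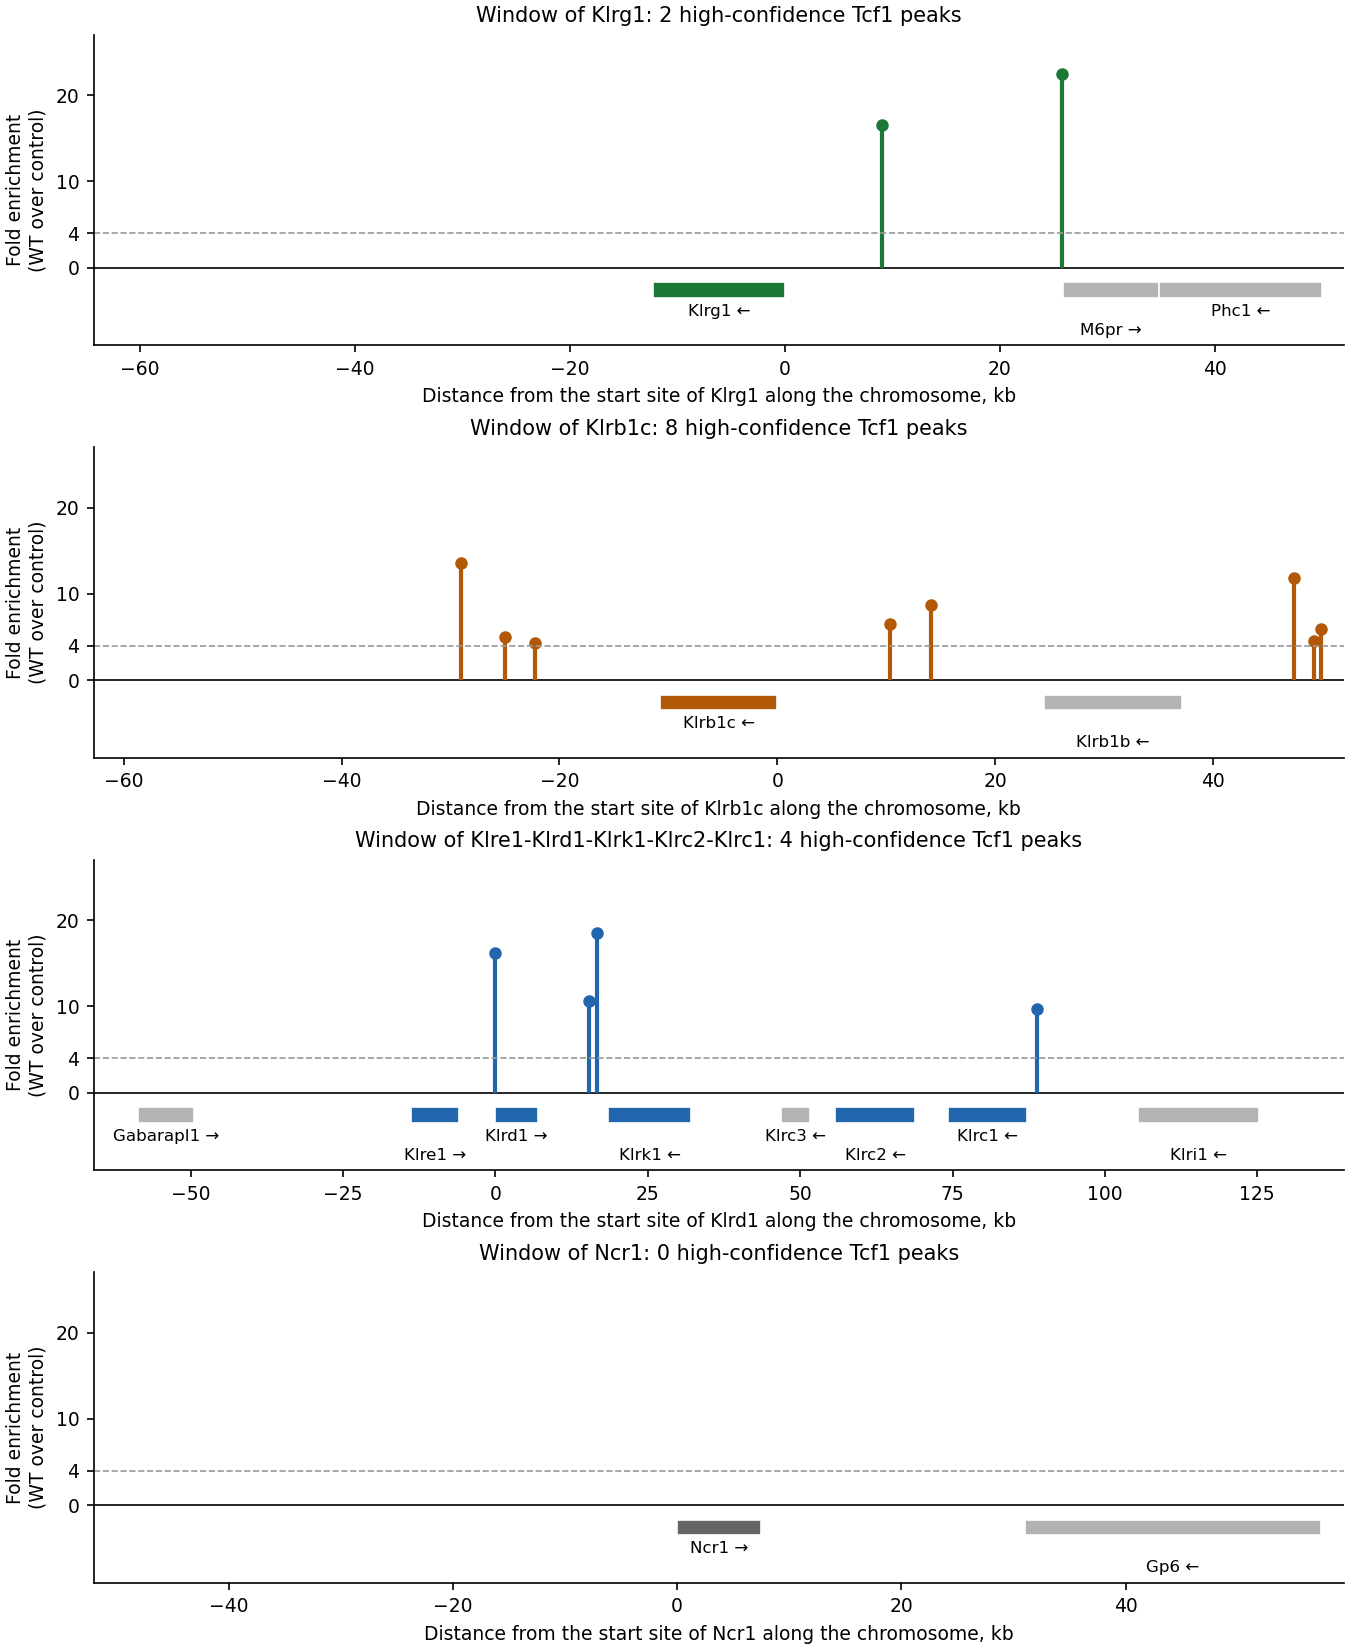
Fold enrichment (y axis) of each Tcf1 peak against distance in kb along the chromosome from the start site of the gene named under each panel (x axis). Stems are peaks, coloured bars the 8 genes, grey bars other protein-coding genes, arrows the direction of transcription and the dashed line the fold minimum of 4. Stems stand beside genes and not within the coloured bars, with 8 in the Klrb1c window and 0 in the Ncr1 window.

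Fold enrichment is the WT pileup plus 1 over the local control level plus 1, where pileup counts the WT fragments that cover the summit. Among the 14 peaks it ran from 4.36 to 22.4 with a median of 10.1, against a median of 6.86 over all 19042 high-confidence peaks. The median pileup was 64 fragments (31 to 118 from the ranks of the 14), against 44 over all high-confidence peaks. The control level was at its genome-wide floor of 5.42 fragments at 13 of the 14 peaks, as at 86.3% of all high-confidence peaks, so fold enrichment at these 13 followed the WT pileup alone. A fold enrichment of 10 or more was reached by 7 of the 14 peaks and by 27.4% of all high-confidence peaks. The pileup interval reached below the fold minimum at 3 of the 14, all in the Klrb1c window, and 2 of these were within 1 Poisson SD of it. The peak caller's −log10 p ran from 11.2 to 146. It sets the WT pileup against the control level, which is the floor at 13 of the 14 peaks, and is not a test between genotypes.

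**Figure D2:**
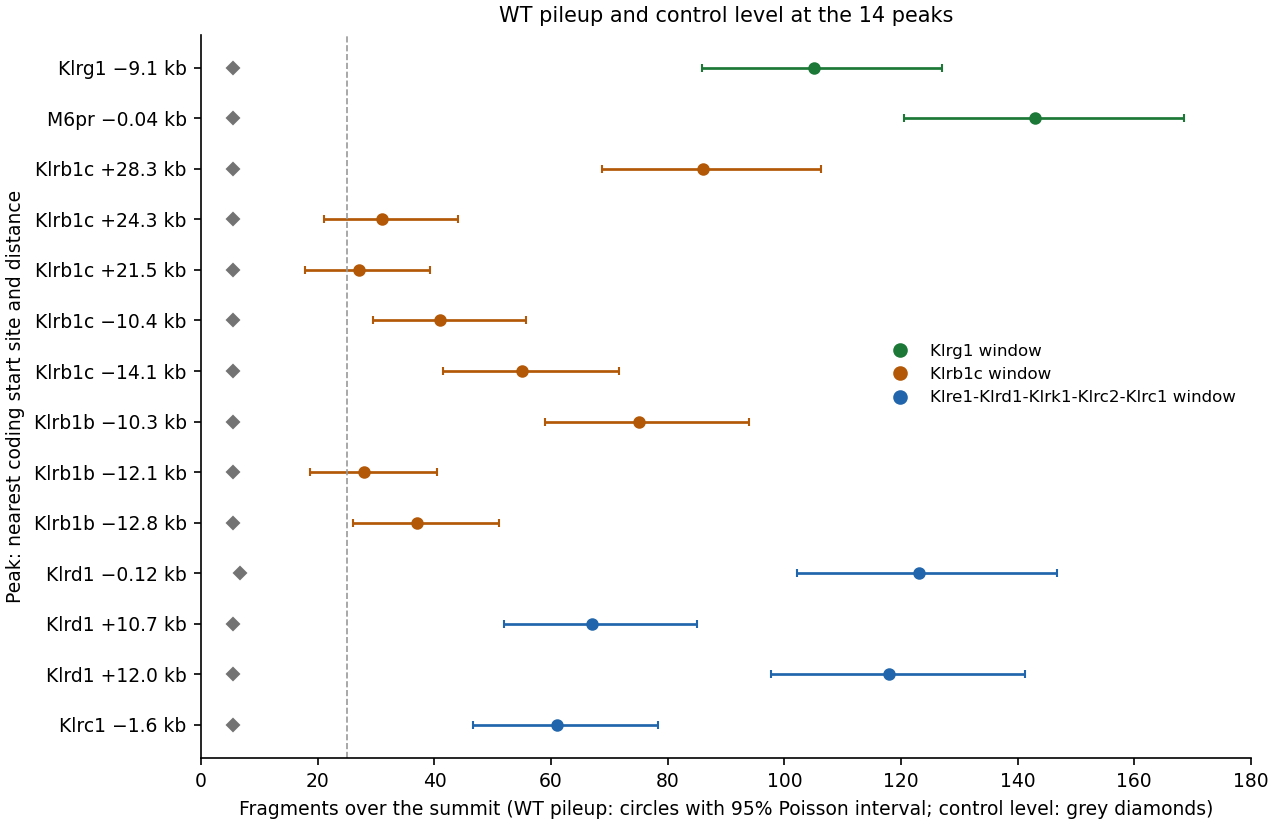
WT pileup in fragments over the summit (circles with 95% Poisson intervals) and, on the same scale, control level (grey diamonds) (x axis) for the 14 peaks (y axis, named by the nearest protein-coding start site, with minus for upstream and plus for downstream). The control level is computed back from the fold enrichment and is not a count of control fragments at the summit. The dashed line marks the pileup of 25 that the fold minimum requires at the control floor. Pileups ran from 27 to 143, and the control level left its floor at the Klrd1 promoter alone.

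By position, 12 of the 14 summits were intergenic, 2 lay in promoters (within 1 kb of an annotated start site) and 0 in gene bodies. The promoter share was 14.3% (1.78 to 42.8), against 39.6% of all high-confidence peaks. The bodies of the 8 genes sum to only 85.08 kb, so that a count of 0 allows up to 35.3 summits per Mb there, above the 9.87 per Mb found over all protein-coding gene bodies. Absence from the gene bodies was thus not distinguishable from the usual density at this length. Only 1 of the 14 peaks reached into a gene of the list, the Klrd1 promoter peak, with 183 bp inside the gene. Another high-confidence summit lay within 10 kb of 10 of the 14, against 49.1% of all high-confidence peaks.

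Klrd1 (ENSMUSG00000030165.10, chromosome 6, 129541800 to 129548793, plus strand) encodes CD94, the common chain of the NKG2A and NKG2C receptors. It was the one gene of the 8 with a Tcf1 peak in its promoter. This peak, chr6:129541422-129541982, had a pileup of 123 fragments (102 to 147) over a control level of 6.69, a fold enrichment of 16.1 that was above 87.8% of all high-confidence peaks. Its summit was 122 bp upstream of the start site. The control level was higher here than at the other 13 peaks, and the WT pileup lay well over it. The summit windows of 3 peaks are printed here because 2 of them hold a Tcf/Lef spelling near the summit and the third is the strongest peak of the cluster. Each runs 50 bp to either side of the summit on the plus strand of mm9, with motif spellings in capitals (TTCAAAG at the promoter, the Tcf/Lef core ATCAAAG read on the minus strand at the first site between Klrd1 and Klrk1, CAGCTG and TGTGGTC at the second).
Klrd1 promoter, chr6:129541628-129541728: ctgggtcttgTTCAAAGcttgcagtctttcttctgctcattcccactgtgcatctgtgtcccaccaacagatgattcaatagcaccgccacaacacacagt
Klrd1 to Klrk1, first site, chr6:129557124-129557224: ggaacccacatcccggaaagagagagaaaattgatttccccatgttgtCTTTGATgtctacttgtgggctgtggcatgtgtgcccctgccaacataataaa
Klrd1 to Klrk1, second site, chr6:129558470-129558570: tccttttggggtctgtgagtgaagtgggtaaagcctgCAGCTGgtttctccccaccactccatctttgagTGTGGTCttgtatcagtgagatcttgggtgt

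Klrk1 (ENSMUSG00000030149.9, chromosome 6, 129560341 to 129573882, minus strand) encodes NKG2D, an activating receptor, and is transcribed towards Klrd1. A pair of peaks lay in the gap between the ends of these convergent genes. The first, chr6:129556931-129557394, had a pileup of 67 (51.9 to 85.1) and a fold enrichment of 10.6. The second, chr6:129558272-129558911, had a pileup of 118 (97.7 to 141) and a fold enrichment of 18.5, the highest in the window and above 90.7% of all high-confidence peaks. The intervals of the pair did not overlap, and their summits were 1.346 kb apart. The second summit was also the nearest to Klrk1, 14.1 kb downstream of the nearest annotated Klrk1 start site and beyond the end of the gene, and no peak lay upstream of Klrk1 within 50 kb.

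Klrc1 (ENSMUSG00000030167.9, chromosome 6, 129616033 to 129628991, minus strand) encodes the inhibitory chain NKG2A, and Klrc2 (ENSMUSG00000052736.8, chromosome 6, 129597514 to 129610707, minus strand) the activating chain NKG2C. Klrc1 had 1 peak, chr6:129630410-129630863, whose summit was 1.64 kb upstream of the start site, with a pileup of 61 (46.7 to 78.4) and a fold enrichment of 9.66. This was also the only peak upstream of Klrc2, at 19.9 kb. Klrc1, Klrc2 and the neighbouring Klrc3 are products of gene duplication, and the sequence under the Klrc1 peak had aligned counterparts of 258 bp upstream of both others, at 81.4% identity for Klrc2 and 81.8% for Klrc3. These lay 0.722 kb upstream of the Klrc2 start site and 0.807 kb upstream of that of Klrc3. A deposited peak overlapped 0 of the 2 counterparts, and the nearest deposited summit was 19.2 kb and 35.6 kb away. The 3 sequences are given side by side because the copies with and without a peak differ in a few motif letters. Each is the plus strand of mm9 over the 161 bp aligned around the Klrc1 summit, with spellings of the searched motifs in capitals.
Klrc1 peak, chr6:129630554-129630714: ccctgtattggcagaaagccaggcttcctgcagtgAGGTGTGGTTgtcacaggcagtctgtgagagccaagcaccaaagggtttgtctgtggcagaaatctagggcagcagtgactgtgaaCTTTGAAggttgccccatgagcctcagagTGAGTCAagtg
Klrc2 copy, chr6:129611353-129611513: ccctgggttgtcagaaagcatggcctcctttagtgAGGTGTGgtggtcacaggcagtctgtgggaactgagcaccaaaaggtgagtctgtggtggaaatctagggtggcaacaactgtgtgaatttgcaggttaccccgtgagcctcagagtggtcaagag
Klrc3 copy, chr6:129594086-129594246: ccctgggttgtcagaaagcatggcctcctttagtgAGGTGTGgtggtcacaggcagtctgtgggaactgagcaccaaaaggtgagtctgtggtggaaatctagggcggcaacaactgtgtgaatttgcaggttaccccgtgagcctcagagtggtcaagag

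In the Klrc1 sequence the capitals mark, from left to right, AGGTGTG (T-box) overlapping TGTGGTT (Runx), then TTCAAAG (second Tcf/Lef spelling) and TGACTCA (AP-1), the last pair read on the minus strand. Over the aligned stretch 132 of 159 bases were identical in the Klrc2 copy and 133 in the Klrc3 copy. Both copies kept 7 of the 7 T-box letters, 6 of 7 Runx letters, 6 of 7 AP-1 letters and 5 of 7 letters of the Tcf/Lef spelling. The part of these letters in the difference was not tested. How reads with several equal alignments were handled is not given in the sources used here.

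Klre1 (ENSMUSG00000050241.6, chromosome 6, 129527911 to 129535842, plus strand) encodes a receptor of the same complex that pairs with the Klri1 and Klri2 products. It had no peak upstream within 50 kb. The peak nearest its start site was the Klrd1 promoter peak, 13.8 kb downstream of it and past the end of the gene. All 3 peaks counted for Klre1 were also counted for Klrd1 and Klrk1, so these genes are not separate observations.

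Klrg1 (ENSMUSG00000030114.8, chromosome 6, 122220614 to 122232900, minus strand) encodes an inhibitory receptor for cadherins and is used as a marker of short-lived effector CD8+ T cells. Its window held the peak with the highest pileup of the 14, and both of its peaks had a fold enrichment over 10. The site nearest the gene, chr6:122241650-122242329, was intergenic with a summit 9.08 kb upstream of the start site, a pileup of 105 (85.9 to 127) and a fold enrichment of 16.5, above 88.3% of all high-confidence peaks. The other, chr6:122258362-122259231, had a pileup of 143 (121 to 168) and a fold enrichment of 22.4, above 93.7%, but its summit lay 41 bp upstream of M6pr, which encodes a mannose-6-phosphate receptor of lysosomal sorting. The M6pr promoter summit lay in sequence that aligned over 502 bp at 93.0% identity to a place on chromosome 3, which 0 deposited peaks overlapped. The pair lay 16.719 kb apart with overlapping pileup intervals. The nearest high-confidence summit past the window was 7.08 kb beyond its edge, in the promoter of Phc1, with a fold enrichment of 7.32. The upstream site is printed because it is the intergenic site closest to Klrg1 and carried a Runx spelling (TGTGGTT) and AP-1 spellings (TGACTCA). Its plus strand over 50 bp on either side of the summit is shown with the spellings found there in capitals, both of them read on the minus strand.
Klrg1 upstream site, chr6:122241928-122242028: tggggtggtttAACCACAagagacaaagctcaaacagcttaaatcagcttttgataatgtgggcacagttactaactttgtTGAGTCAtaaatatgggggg

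Klrb1c (ENSMUSG00000030325.9, chromosome 6, 128728503 to 128739233, minus strand) encodes NK1.1, the antigen by which NK cells of C57BL/6 mice are stained. Its 8 peaks were more than 95.4% of protein-coding genes had in their windows, while their median fold enrichment, 6.23, was under that of all high-confidence peaks. Beyond the end of the gene lay 3 summits, 21.5 to 28.3 kb downstream of the nearest Klrb1c start site. The outermost, chr6:128709981-128711185, was the strongest of the window, with a pileup of 86 (68.8 to 106) and a fold enrichment of 13.6. The other downstream peaks, chr6:128714124-128714506 and chr6:128716853-128717123, had pileups of 31 (21.1 to 44.0) and 27 (17.8 to 39.3) and fold enrichments of 4.99 and 4.36. The interval of the outermost pileup did not overlap those of the others, and the intervals of the weaker pair overlapped each other.

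Upstream of Klrb1c 2 summits lay between it and Klrb1b, which encodes an inhibitory receptor of the same family. The first, chr6:128748904-128749871, was 10.4 kb upstream of the start site with a pileup of 41 (29.4 to 55.6) and a fold enrichment of 6.54. The second, chr6:128753004-128753538, was 14.1 kb upstream with a pileup of 55 (41.4 to 71.6) and a fold enrichment of 8.73. Their intervals overlapped. The remaining 3 summits lay past the start site of Klrb1b, 10.3 to 12.8 kb upstream of it and at the rim of the Klrb1c window. The strongest of them, chr6:128786249-128786856, had a pileup of 75 (59.0 to 94.0) and a fold enrichment of 11.8, and the other pair had pileups of 28 (18.6 to 40.5) and 37 (26.1 to 51.0). A next summit followed 4.11 kb outside the window with a fold enrichment of 5.84.

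The peaks on either side of Klrb1c shared sequence. Each of the 3 downstream peaks had a copy of at least 200 bp upstream of the gene, 38.3 to 39.1 kb away and in the same orientation. The strongest downstream peak aligned over 1237 bp at 89.3% identity to the stretch that held the first upstream peak, and the next over 391 bp at 90.0% to the stretch that held the second. The place matching the downstream summit lay 602 bp from the upstream summit in the first of these and 232 bp in the second, so the highest coverage did not fall on matching bases. The third downstream peak aligned over 269 bp at 96.7% to a stretch that 0 deposited peaks overlapped. All 3 pairs are printed to show where the downstream sequence and its copy differ. The copies of the first and second lie under an upstream peak, and that of the third does not. They give the plus strand of mm9 around the downstream summit and its counterpart, with capitals at bases that differ between the members of a pair.
Klrb1c downstream, strongest peak, chr6:128710174-128710274: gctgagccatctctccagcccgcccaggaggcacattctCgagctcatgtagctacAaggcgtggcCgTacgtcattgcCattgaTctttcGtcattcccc
its copy under the first upstream peak, chr6:128748958-128749059: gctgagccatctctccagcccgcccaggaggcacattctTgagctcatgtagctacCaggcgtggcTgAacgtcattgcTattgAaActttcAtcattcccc
Klrb1c downstream, middle peak, chr6:128714172-128714272: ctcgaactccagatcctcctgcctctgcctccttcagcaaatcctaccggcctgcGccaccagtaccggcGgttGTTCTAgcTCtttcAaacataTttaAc
its copy under the second upstream peak, chr6:128753057-128753157: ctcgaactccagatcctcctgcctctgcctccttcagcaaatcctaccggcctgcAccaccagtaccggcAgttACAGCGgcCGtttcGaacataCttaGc
Klrb1c downstream, weakest peak, chr6:128716949-128717049: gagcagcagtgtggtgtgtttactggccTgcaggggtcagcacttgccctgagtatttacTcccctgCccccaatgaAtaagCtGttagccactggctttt
its copy without a peak, chr6:128755273-128755373: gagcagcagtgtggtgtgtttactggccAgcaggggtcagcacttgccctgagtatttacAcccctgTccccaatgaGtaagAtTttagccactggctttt

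In the printed stretches 94 of 101 aligned bases were identical in the strongest pair, with 1 gap, 88 of 101 in the middle pair and 95 of 101 in the pair of which one copy had no peak. The weakest peak was also one of the 2 within 1 Poisson SD of the fold minimum. The window held further repeats. The summit windows, 100 bp to either side of the summit, of the middle downstream peak and of the weaker inner peak beyond Klrb1b shared 90 identical bases in opposite orientation, and those of the strongest downstream peak and the outermost peak beyond Klrb1b shared 72. The middle downstream summit lay in a stretch that aligned to 311 other places in the genome, of which 9 held a high-confidence summit. The weaker inner summit beyond Klrb1b aligned to 310 other places, of which 8 held one, and the outermost to 28, of which 0 did. By words of 16 bases that occur over 100 times in the genome, up to 28.5% of a summit window was repeated in the Klrb1c window, none over 50%, as against 1.28% of all high-confidence windows that were over 50%. Over all windows, 9 of the 14 summits lay in sequence that aligned to another place in the genome. The part of repeated sequence in these counts was not tested.

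Ncr1 (ENSMUSG00000062524.3, chromosome 7, 4289326 to 4296766, plus strand) encodes NKp46, an activating receptor used to identify NK cells. Its window held 0 deposited peaks, and 33.5% of protein-coding genes likewise had 0 high-confidence peaks in theirs. The nearest high-confidence summit was 59.1 kb upstream of its start site, at chr7:4230109-4230335, with a pileup of 25 and a fold enrichment of 4.05, the lowest pileup that passes the fold minimum at the control floor. On the downstream side the nearest was 97.9 kb past the window.

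**Figure D3:**
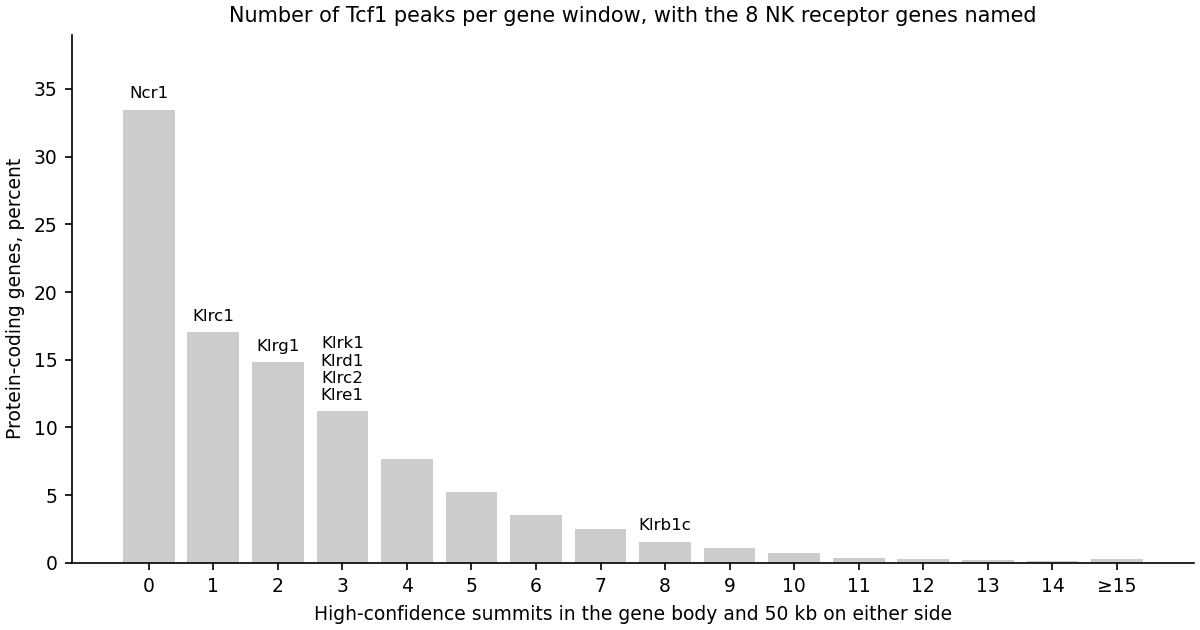
Share of protein-coding genes in percent (y axis, grey bars) by the number of high-confidence Tcf1 summits in the gene body and 50 kb on either side (x axis), with the 8 NK receptor genes named over their bar. Klrb1c stands at 8, Ncr1 at 0 and the other 6 between 1 and 3.

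The share of all high-confidence peaks with a lower fold enrichment ran from 7.54% to 93.7% over the 14. The Klrb1c window accounted for the lower part, with 3 peaks under a fold enrichment of 5, while the lowest value in the other windows was 9.66. The Klrg1 window had a median of 19.5 and the Klre1 to Klrc1 window one of 13.4. The windows are regions of 1 library, and no test was made between them.

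**Figure D4:**
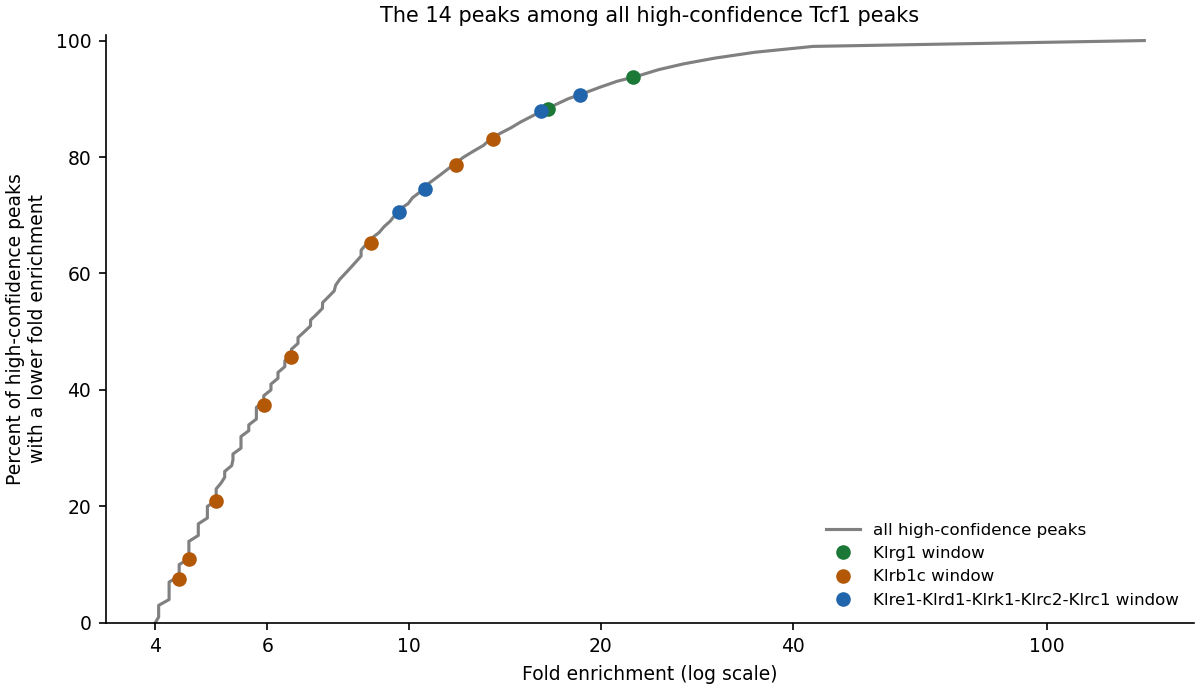
Percent of high-confidence peaks with a lower fold enrichment (y axis) against fold enrichment on a log scale (x axis) for all high-confidence peaks (grey line) and for the 14 peaks (points, coloured by window). The 6 points outside the Klrb1c window lie at a fold enrichment of 9.66 or more, and the 8 inside run from 4.36 to 13.6.

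The Tcf/Lef core ATCAAAG, searched on both strands within 100 bp of the summit, was present at 1 of the 14 peaks, or 7.14% (0.181 to 33.9), against 10.2% of all high-confidence peaks and 3.31% of windows 2 kb to either side of them. It was the first site between Klrd1 and Klrk1, with the middle base 1 bp from the summit. A second spelling, TTCAAAG, was found at the Klrd1 promoter, 37 bp from the summit, and at the Klrc1 peak, 44 bp from it, that is at 2 of 14 against 10.7% of all high-confidence peaks and 4.72% of flanking windows. Either spelling was thus present at 3 of 14, all in the Klre1 to Klrc1 window, against 19.9%. Over the whole peak the exact core was present at 4 of 14, against 15.1% of all high-confidence peaks: the additional ones were the Klrd1 promoter peak, 148 bp from the summit, the M6pr promoter peak and the second peak upstream of Klrb1c. The core read backwards, GAAACTA, which serves as a control, was found at 1 of 14, against 2.40%. With 14 peaks the intervals contain the genome-wide shares.

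Spellings of other factors' motifs were scattered over few peaks. TGTGGTT, the core bound by Runx factors, was found at 3 of 14 peaks (the Klrg1 upstream site, the strongest peak beyond Klrb1b and the Klrc1 peak), against 15.5% of all high-confidence peaks. The second Runx spelling, TGTGGTC, occurred at 1 peak, the second site between Klrd1 and Klrk1, where it stood 23 and 77 bp from the summit and CAGCTG, an E-box of the kind bound by E proteins, stood 10 and 73 bp from it. These 2 spellings, each at 1 of 14 peaks, were present at 7.05% and 12.2% of all high-confidence peaks and at 2.79% and 8.89% of flanking windows. TGACTCA, the AP-1 site, was found at the Klrg1 upstream site and at the Klrc1 peak, 2 of 14 against 4.67%. AGGTGTG, bound by T-box factors such as T-bet and Eomes, was found at the Klrc1 peak alone, against 5.18% of all high-confidence peaks and 5.24% of flanking windows. The ETS spelling AGGAAGT was found at 1 peak, against 16.4%, and CGGAAGT at 0, against 6.93%. Apart from the strongest peak beyond Klrb1b and the weakest downstream peak, the Klrb1c window held none of these spellings within 100 bp of a summit.

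**Figure D5:**
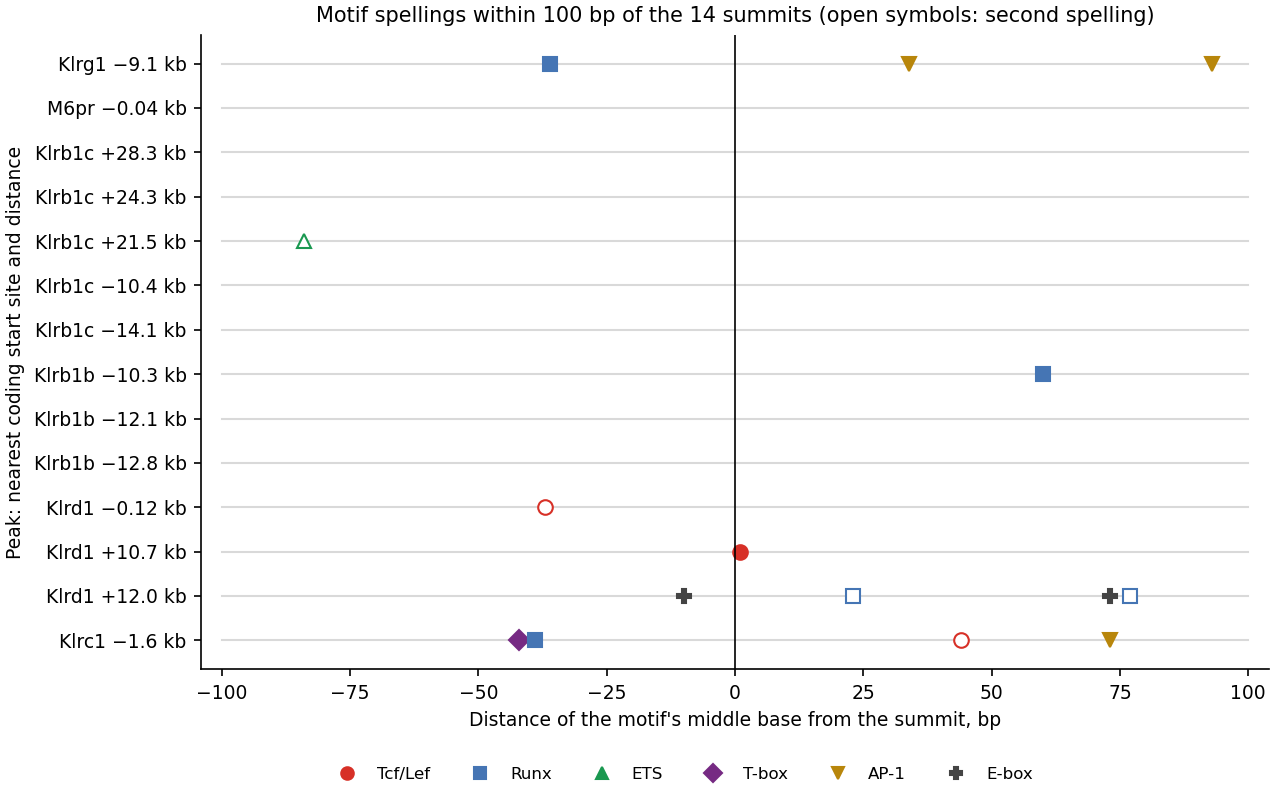
Positions of motif spellings in bp from the summit (x axis) at the 14 peaks (y axis, named by the nearest protein-coding start site). Symbols give the motif, and open symbols its second spelling. The core read backwards is not drawn. Tcf/Lef spellings appear at 3 peaks of the Klre1 to Klrc1 window, and 7 of the 14 rows hold no symbol.

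Promoters of the receptor genes themselves were read from a RefSeq table (GRCm38.p6, 300 bases around a start site), in which 6 of the 8 genes matched, with 9 promoters. Neither Tcf/Lef spelling was present in any of the 9, against 3.73% (ATCAAAG) and 5.14% (TTCAAAG) of all 32851 promoters, so few or none would be found among 9 at these shares. TGTGGTT was present in 4 of the 9 (the Klrk1 promoter, 1 of the 2 of Klre1 and both of Ncr1), against 5.27% of all promoters. TGACTCA was present in 3 of the 9 (the Klrk1 promoter and both of Klrc2), against 5.20%. TGTGGTC was present in 1 of the 9, against 4.19%. The E-box was present in 0 of the 9, against 16.3% of all promoters, as were the T-box spelling, against 5.84%, and the ETS spellings AGGAAGT, against 9.35%, and CGGAAGT, against 6.42%. Promoters of 1 gene may share bases and are not separate observations. Klrd1 and Klrg1 did not match.

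Most windows of related genes also held high-confidence peaks. Of 18 annotated other receptors of the NK complex, 15 had a peak in their windows, the strongest being those of Klrc3 (fold enrichment 18.5, shared with Klrd1 and Klrk1), Klri1 and Klri2 (15.3, a single peak). Many of these windows overlap. All 3 peaks of Klrb1, 7 of the 8 of Klrb1b and all 4 of Klrc3 were peaks already described above. Klra1, Klra3 and Klra9 had the same strongest peak, as did Klra4 and Klra6, and Klra5 and Klra17. The 15 are thus not separate observations. Of 10 annotated adaptors and signalling proteins behind these receptors, 9 had a peak, with a median of 6 a window. The strongest were at Inpp5d (79.8), whose phosphatase SHIP1 acts in inhibitory signalling, Vav1 (46.6), an exchange factor of activating signalling, and Ptpn6 (36.3), which encodes the phosphatase SHP-1. Hcst and Tyrobp, the adaptors DAP10 and DAP12 used by NKG2D, are neighbours and shared a peak with a fold enrichment of 27.3. Of 8 annotated ligand genes 7 had a peak, led by Clec2d (30.7), which encodes the ligand of the Klrb1b product, the cadherin gene Cdh1 (28.2), a ligand of Klrg1, and H60b (19.0), a ligand of NKG2D. Of 7 annotated transcription factors of the NK lineage 6 had a peak, led by Runx3 (66.1), Prdm1 (41.5) and Nfil3 (14.6), and Eomes had none. Klrh1, Syk, Ulbp1, Raet1e and Zfp683 had no match in the annotation used. These counts stand beside the 66.5% of all protein-coding genes.

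A peak near a gene is not a measure of its expression, so the sorted cell type could not be checked with these data beyond the presence of peaks. All 5 T cell marker genes examined (Cd3e, Cd3d, Cd3g, Cd8a, Cd8b1) had high-confidence peaks in their windows, as did 2 of 4 NK markers (Klrb1c and Il2rb, without Ncr1 and Eomes), 2 of 3 B cell markers and 2 of 3 myeloid markers. With 66.5% of all protein-coding genes having a peak, these counts separate no cell type.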

How the data were processed

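Tcf1 ChIP-seq had been performed by the authors on sorted naive CD8+ T cells, in 1 WT and 1 Tcf1-deficient library. Reads were aligned to mm9 with Bowtie2 2.2.5 and peaks called with MACS2 2.1.1 with paired ends and a p limit of 1e-05, with 1 fragment kept per position. Per the file headers, 79.6% of 46428124 WT and 76.5% of 36118114 Tcf1-deficient fragments were kept. The deposited pileup is a signal, the unscaled coverage of WT fragments at the summit. The deposited fold enrichment is a ratio with a pseudocount of 1, and the deposited −log10 p and −log10 q values are the peak caller's. The deposited coordinates, which are 1-based, and widths in bp were used as given.

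Member genes, related gene lists and motifs were chosen with earlier results of these data known. All 8 genes were described in full, and of each related list the 3 genes with the strongest peaks. Other genes named with values (Tyrobp, Hcst, M6pr, Phc1) were chosen after their values were seen. The control level was computed back as (pileup + 1)/fold enrichment − 1, and levels within 0.01 fragments of the lowest were taken as the floor. Intervals are exact Poisson for counts and densities and exact Clopper-Pearson for shares, and the interval of a median is from order statistics. The limit for a count of 0 is 3 counts. Promoters were 1 kb to each side of a start site of any transcript. Sequences were read from NCBIM37, which is mm9, with pysam 0.24.0, copies were searched with blastn 2.17.0 (e-value 1e-10) and aligned with Biopython 1.88. The interval and motif functions were tested on simulated data. No test was run between genotypes, since there is 1 library a group. Alternatives were another fold minimum, q limit, window, promoter width and motif window.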

Additional observations from a re-analysis of the deposited data

How the results depend on the processing

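No paired analysis was possible because each group has 1 library, and no replicate could be left out. Of 60 alternative settings over 8 results, 55 left a count within 1.5 times of the reported one, or another value within its interval (for the median control level, within 1 Poisson SD). This is a weak check, since the intervals of 14 peaks are wide. The Tcf/Lef core share of 28.6% over the whole peak, for example, still lay within the interval of the reported 7.14%. Leaving out the fold minimum could not change the 14 peaks, since all deposited peaks in the windows pass it. The count of 14 peaks became 9 at a fold minimum of 8, 9 with the gene body and 50 kb upstream only, and 5 with windows of 10 kb, and the share at high confidence became 64.3% at a fold minimum of 8. With upstream windows the share with the Tcf/Lef core became 0%, since the 1 peak with the core lies downstream of Klrd1 and Klrk1. The number of genes with a peak was 5 of 8 with windows of 10 kb (Klrc2, Klrb1c and Ncr1 without) and with upstream windows (Klrk1, Klre1 and Ncr1 without), and 8 of 8 with windows of 100 kb, where Ncr1 gained 1 peak. Merging peaks with gaps of at most 1 kb gave 12. The pileup intervals of the 3 weakest peaks reach below the 25 fragments of the fold minimum, and the part of depth in this was not tested.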

Other observations

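The receptor genes on chromosome 6 other than Klrg1 lie in the NK gene complex. From Klrb1a to Klra1 (chr6:128559245-130336892) 41 high-confidence summits were found, 23.1 per Mb (16.6 to 31.3), of which 12 belong to the windows described above. It was divided at the starts of Clec2d, Klre1 and Klra17, places chosen after the summits were seen. The segment from Klrb1a to Clec2d, which holds Klrb1c, had 14 summits, or 24.5 per Mb (13.4 to 41.1). That from Clec2d to Klre1, with the gene of the early activation receptor Cd69, had 16, or 40.3 per Mb (23 to 65.4), and the strongest peak of the complex (chr6:129160298-129160899, pileup 196, fold enrichment 30.7). The segment from Klre1 to Klra17 had 6, or 23.7 per Mb (8.69 to 51.6). The Ly49 receptor cluster from Klra17 to Klra1 had 5, or 9.0 per Mb (2.92 to 21.0), all with a fold enrichment of 6.39 or less. These densities are a description, and no comparison was made between segments. Between neighbouring summits the widest gap was 198.546 kb and ended at the Klrd1 promoter peak, and the next, 170.326 kb, began upstream of Klri2.

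The window of Klri1 and Klri2, whose products pair with that of Klre1, held a peak with a fold enrichment of 15.3 and a pileup of 97 outside the windows of the 8 genes. Of the Ly49 genes, Klra8 and Klra10 had 0 high-confidence peaks within 50 kb, and Klra9 had a summit in its body. The annotated span of Klra9, chr6:130128771-130285823, is long and encloses both Klra7 and Klra10. The summit in it was also the one counted for Klra7.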
